A study of Mus musculus with 4 samples.

Results

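The genes described here encode the 5 subunits of the transcription factor NF-kB (Rela, Relb, Rel, Nfkb1 and Nfkb2), the 3 subunits of the IkB kinase complex, IKK (Chuk, Ikbkb and Ikbkg), and the NF-kB-inducing kinase NIK (Map3k14). They were found by the RefSeq transcript that the array files name for each probe, and were 9 of the 20643 genes with a symbol on the array. The 9 genes were read by 13 probes on 14 spots. Relb, Nfkb1, Ikbkg and Map3k14 had 2 probes each, the other 5 genes had 1, and the second Nfkb1 probe was spotted in 2 places. None of their spots was flagged as an outlier or saturated.

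The cells were primary chondrocytes from 6-day-old C57BL/6J mice, cultured for 3 days with or without 10 ng/mL TNF. Prrx1-Cre;Rela fl/fl mice, called cKO in the labels, were compared with Rela fl/fl littermates, called control, so both groups carried 2 floxed Rela alleles and the cKO mice also carried a Cre transgene driven by the promoter of Prrx1, which is active in undifferentiated limb mesenchyme. Total RNA of each of the 4 combinations of genotype and treatment was put on 1 array, a 1-colour mouse expression array of Agilent. How many mice or cultures stood behind each array is not given in the sources used here. The question was which genes respond to TNF in chondrocytes and which of these responses depend on Rela.

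NF-kB proteins bind DNA as dimers and are held in the cytoplasm by inhibitory IkB proteins. In the canonical pathway, TNF leads to activation of the IKK complex, which phosphorylates IkB and frees dimers of RelA and p50, the processed product of Nfkb1. In the non-canonical pathway, NIK accumulates and acts through IKKα, encoded by Chuk, to process the Nfkb2 product p100 into p52, the partner of RelB. Several subunit and inhibitor genes are themselves known as targets of NF-kB, and the pathway is known in cartilage for control of inflammatory and matrix-degrading genes.

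The signal of a probe is its background-corrected brightness divided by the 75th percentile of its array, so that a signal of 1 is the 75th percentile, and a difference is a difference of log2 signals. Probes spotted 10 times on each array gave a technical spread of 0.138 on the log2 scale for the difference of 1 spot between 2 arrays, so that 2 spreads come to 0.276. That spread covers spotting and scanning of 1 labelled RNA and leaves out differences between mice, cultures and labellings. With 1 array per condition there was no replicate check and no p-value was computed. All statements are about these 4 arrays. In bulk RNA, fewer cells of a type and less RNA per cell cannot be told apart.

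Promoter windows of the members were taken from RefSeq (GRCm38.p6), each 300 bases long, with 250 before and 50 after a transcript start. Of the 9 members, 6 were in that table, with 11 windows. Relb, Nfkb1 and Ikbkb were not. Both strands were searched for a loose form of the NF-kB motif, GGGNNNNNCC, and for a tighter form contained in it, GGGNNTTTCC. The loose form was in 50.79% of all 32851 windows of the table. The tighter form was in 1.629% of all windows, and in 4 of the 11 member windows, at 3 distinct places. These windows belong to 2 of the 6 members, Nfkb2 and Rel. Nfkb2 is shown because its signal was higher with TNF in both genotypes, and Rel because it holds a match too, while its probe was not well above background in any condition. Capitals mark the match to the tighter form, on either strand.

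Nfkb2, chr19:46304487-46304786, plus strand: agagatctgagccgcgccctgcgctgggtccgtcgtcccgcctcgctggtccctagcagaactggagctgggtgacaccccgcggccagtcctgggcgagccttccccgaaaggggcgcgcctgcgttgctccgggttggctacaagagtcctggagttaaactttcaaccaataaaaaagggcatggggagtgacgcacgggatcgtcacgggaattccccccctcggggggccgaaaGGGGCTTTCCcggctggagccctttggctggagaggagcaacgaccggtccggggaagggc
Nfkb2, chr19:46305445-46305744, plus strand: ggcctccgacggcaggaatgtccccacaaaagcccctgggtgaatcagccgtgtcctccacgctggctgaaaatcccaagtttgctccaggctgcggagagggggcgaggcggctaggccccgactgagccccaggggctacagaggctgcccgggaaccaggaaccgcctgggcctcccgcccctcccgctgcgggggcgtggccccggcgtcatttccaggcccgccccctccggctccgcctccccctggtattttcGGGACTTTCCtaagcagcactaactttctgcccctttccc
Rel, chr11:23770920-23771219, minus strand: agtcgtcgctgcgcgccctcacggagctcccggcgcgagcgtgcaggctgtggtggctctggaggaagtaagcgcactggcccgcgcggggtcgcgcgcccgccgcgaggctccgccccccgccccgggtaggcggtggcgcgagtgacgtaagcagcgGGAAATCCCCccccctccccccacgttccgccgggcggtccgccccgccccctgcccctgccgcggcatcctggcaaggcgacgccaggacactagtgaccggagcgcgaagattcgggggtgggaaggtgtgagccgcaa

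In the first Nfkb2 window the match began 11 bases before the transcript start. In the second it began 10 bases after the start, and the same match lay 225 bases before another Nfkb2 start whose window overlaps the second. In the Rel window the match was on the opposite strand, 91 bases before the start. No tighter match was in the windows of Rela, Chuk, Ikbkg or Map3k14, which says only that these letters are not there. Whether any NF-kB protein binds these places was not measured.

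The subunits of the non-canonical dimer, Relb and Nfkb2, were the members that differed most between arrays with and without TNF. With TNF in control cells, both Relb probes were slightly over 2-fold higher and Nfkb2 was 1.68-fold higher. On the cKO-labelled arrays, Nfkb2 was 1.59-fold higher with TNF and the 2 Relb probes were 1.49-fold and 1.51-fold higher. The canonical subunits Rela and Nfkb1 and the 3 IKK subunits differed by at most 1.27-fold in both genotypes. Of the 12 member probes well above background, 2 were at least 2-fold higher with TNF in control cells and 0 were lower, beside 2.72% of all probes higher and 4.81% lower. On the cKO-labelled arrays, 0 were past 2-fold in either direction, beside 0.736% of all probes higher and 4.79% lower. These shares also count probes well above background on 1 array only. Among probes well above background on both arrays, as all 12 member probes were, the shares were 1.045% higher and 1.632% lower in control cells. On the cKO-labelled arrays they were 0.4144% and 2.381%.

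Rela (NM_009045) encodes RelA (p65), the subunit with the transactivation domain of the canonical dimer and the gene whose floxed alleles Prrx1-Cre recombines. The Rela signal was 28.3 in control cells without TNF, 34.7 in control cells with TNF, 33.9 on the cKO-labelled array without TNF and 40.2 on the cKO-labelled array with TNF. It was not lower on either cKO-labelled array. The difference from control cells was 0.26 without TNF and 0.21 with TNF on the log2 scale, both within 2 technical spreads. The difference without TNF was just past that limit with no scaling, quantile normalization or the authors' scaled values, at 0.31, 0.30 and 0.28. The place of this single probe in the Rela transcript, and which exons the floxed alleles span, are not given in the sources used here. Whether the probe lies outside the deleted part was not tested, and it is no check of the genotype labels. The libraries are called by their labels throughout for this reason. The authors report PCR evidence that the floxed allele was recombined in Prrx1-Cre;Rela fl/fl chondrocytes. They also report RT-PCR evidence of the deletion, from tissues of these mice.

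With TNF, Rela was 0.30 higher on the log2 scale in control cells, just past 2 technical spreads (0.26 and under the limit with the authors' scaled values), and 0.24 higher on the cKO-labelled arrays. In the order of the 4 Rela signals, lowest in control cells without TNF and highest on the cKO-labelled array with TNF, the 2 in the middle differed by less than the technical spread. Under quantile normalization the TNF difference on the cKO-labelled arrays was 0.10.

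Relb (NM_009046) encodes RelB, which pairs with p52 and p50 and is the subunit of the non-canonical pathway. Its first probe had a signal of 1.48 in control cells without TNF and 3.00 with TNF, against 1.30 and 1.93 on the cKO-labelled arrays without and with TNF. Its second probe had signals of 0.969 and 2.02 in control cells and 0.882 and 1.33 on the cKO-labelled arrays. Both probes gave the same order, with TNF above no TNF in each genotype and control cells with TNF the highest of the 4.

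The TNF difference of Relb was 1.02 and 1.06 on the log2 scale for the 2 probes in control cells, and 0.57 and 0.59 on the cKO-labelled arrays. The TNF difference on the cKO-labelled arrays was thus 56.0% and 55.7% of that in control cells. Among all probes, the 2 probes lay at the 97.3 and 97.4 percentiles of the TNF difference in control cells and at the 97.2 and 97.4 percentiles on the cKO-labelled arrays. These places depended on patches, where several nearby spots were bright on 1 array only. No Relb spot lay in a patch. With spots in patches left out, the 2 probes were at the 99.4 and 99.5 percentiles in control cells. On the cKO-labelled arrays they were at the 97.3 and 97.5 percentiles. Patches were found from these same signals, so leaving them out also takes out many large differences. That choice set the higher places in part.

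Without TNF, Relb was 0.19 and 0.14 lower on the log2 scale on the cKO-labelled array, within 2 technical spreads. With TNF it was lower by more, at -0.64 and -0.61, or 0.641 and 0.656 times the control signal. These were the only 2 member probes at least 1.5-fold lower in that comparison, beside 6.08% of all probes. With normexp background correction the second probe was at -0.51, under 1.5-fold. With patches left out, the 2 probes lay at the 2.58 and 2.91 percentiles of that genotype difference. The way patches were found set these places in part too. The call of 2-fold with TNF in control cells was close to its limit. Over the other settings tried, the difference of the first probe ran from 0.90 to 1.03 and that of the second from 0.95 to 1.07, and with normexp background correction neither was past 2-fold.

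Rel (NM_009044) encodes c-Rel, a subunit best known in lymphocytes. Its probe was not well above background on any array, with processed intensity of 6.81 and 5.98 in control cells without and with TNF and of 4.78 and 3.68 on the cKO-labelled arrays. No level and no difference is given for it, and it is left out of the counts.

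Nfkb1 (NM_008689) encodes p105, which is processed to p50. Its first probe had signals of 0.534 and 0.595 in control cells without and with TNF and of 0.494 and 0.505 on the cKO-labelled arrays. Its second probe had signals of 0.332 and 0.377 in control cells and of 0.340 and 0.343 on the cKO-labelled arrays. Control cells with TNF were the highest of the 4 with both probes, and the order of the other 3 differed between the probes. The TNF difference was 0.15 and 0.18 in control cells, within 2 technical spreads. On the cKO-labelled arrays it was 0.03 and 0.01, and its sign depended on the scaling, with ranges from -0.08 to 0.12 and from -0.10 to 0.15. Nfkb1 was 0.24 and 0.14 lower with TNF on the cKO-labelled array than in control cells, also within 2 technical spreads. For the first probe this was -0.30 and past that limit with no scaling or the authors' scaled values.

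Nfkb2 (NM_019408) encodes p100, the precursor of p52 and also an IkB-like inhibitor of RelB. Its signals were 1.49 and 2.50 in control cells without and with TNF, and 1.47 and 2.33 on the cKO-labelled arrays without and with TNF. Both arrays with TNF were above both arrays without TNF, and within each treatment the 2 genotypes differed by less than 2 technical spreads, at -0.02 without TNF and -0.11 with TNF. With TNF this was -0.17 with no scaling or the authors' scaled values. The TNF difference was 0.75 in control cells and 0.67 on the cKO-labelled arrays, which is 88.7% of the former. It lay at the 96.4 percentile of all probes in control cells and at the 98.1 percentile on the cKO-labelled arrays, with patches included.

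Nfkb2 therefore differed from Relb in how far the TNF difference depended on the label of the array. The TNF difference on the cKO-labelled arrays minus that in control cells was -0.08 for Nfkb2 and -0.45 and -0.47 for the 2 Relb probes. This contrast rests on 4 single arrays and was not tested. It also depended on the scaling. With no scaling the TNF differences of Nfkb2 in control cells and on the cKO-labelled arrays were 0.76 and 0.56. With the authors' scaled values they were 0.72 and 0.55. For the first Relb probe they were 1.03 and 0.47 with no scaling, and 0.98 and 0.46 with the authors' scaled values. The Nfkb2 spot on the cKO-labelled array without TNF lay in a patch, near spots that were bright on that array only. Its own signal there was the lowest of the 4. The part of the patch in its signal was not tested. The genotype difference of Nfkb2 without TNF, -0.02, changed sign over the scalings, from -0.06 to 0.02.

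**Figure D1:**
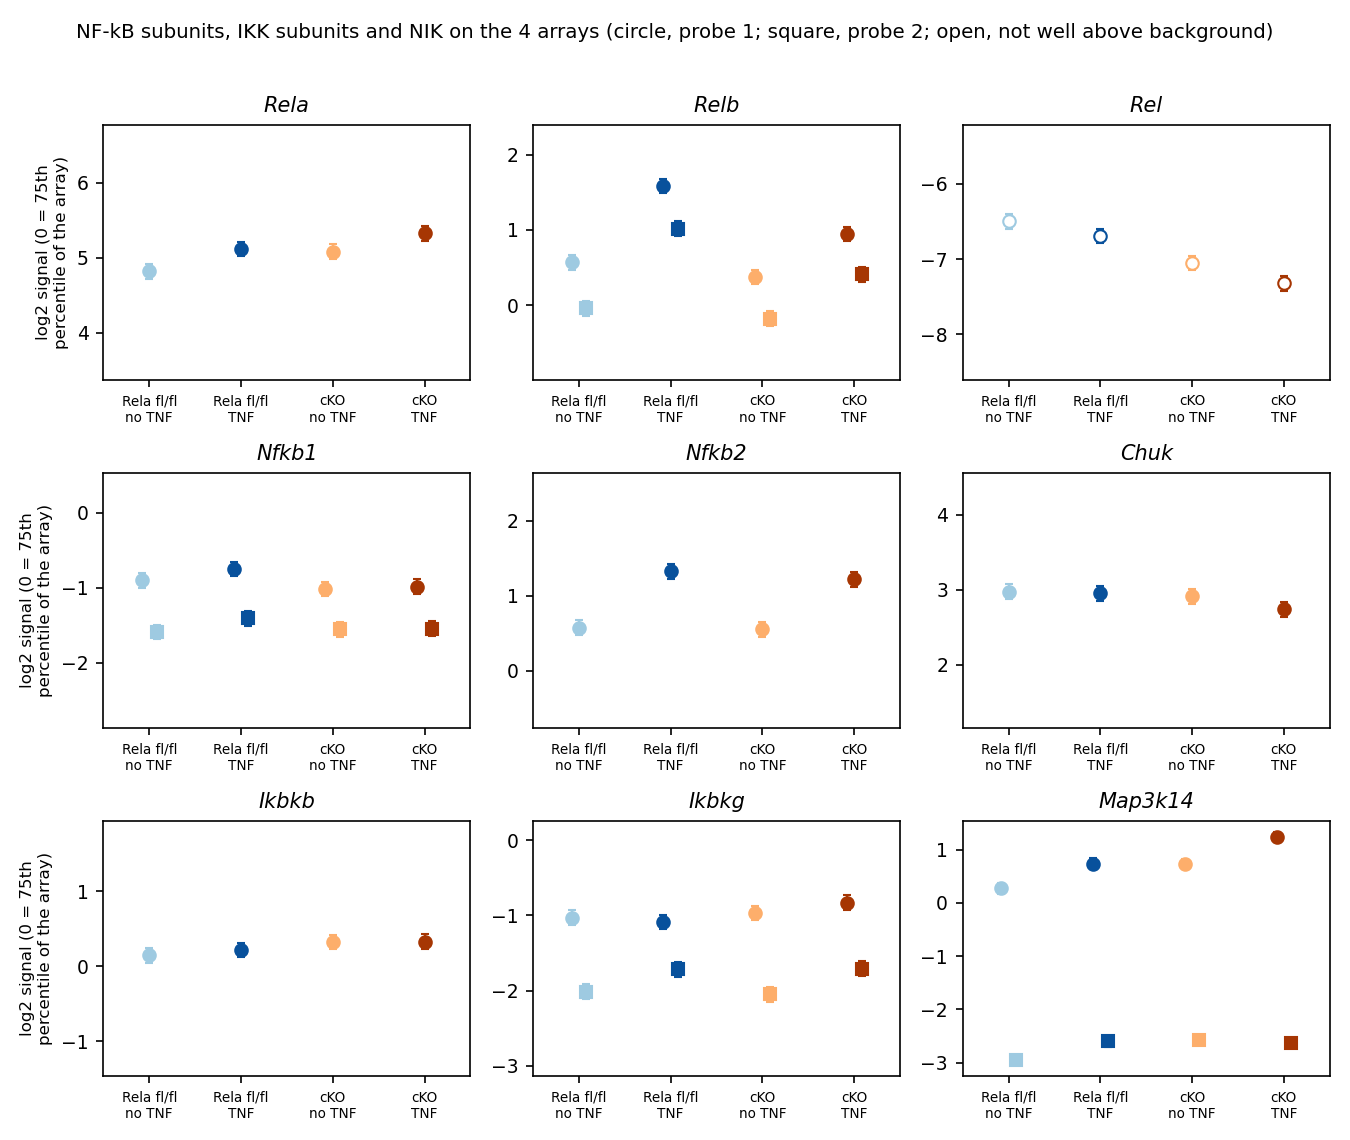
Signal of each member probe on the 4 arrays, on a log2 scale where 0 is the 75th percentile of the array. Each symbol is 1 array, bars are the technical spread of 1 spot and open symbols are not well above background. Relb and Nfkb2 are higher with TNF, Rela is not lower on the cKO-labelled arrays, and Rel is not well above background on any array.

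Chuk (NM_007700) encodes IKKα, the kinase that NIK activates. Its signals were 7.86 and 7.74 in control cells without and with TNF, and 7.53 and 6.68 on the cKO-labelled arrays. The cKO-labelled array with TNF was the lowest, and neighbours in this order did not differ beyond 2 technical spreads. The TNF difference was -0.02 in control cells and -0.17 on the cKO-labelled arrays, both within 2 technical spreads. On the cKO-labelled arrays it was past that limit with no scaling, quantile normalization or the authors' scaled values, at -0.28, -0.28 and -0.29. With TNF, Chuk was at -0.21 on the cKO-labelled array against control cells, and at -0.28 and past the limit under each of these 3 settings.

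Ikbkb (NM_010546) encodes IKKβ, the main IkB kinase of the canonical pathway. Its signals were 1.11 and 1.16 in control cells and 1.25 and 1.26 on the cKO-labelled arrays, without and with TNF. Both cKO-labelled arrays were above both control arrays, by 0.18 without TNF and 0.11 with TNF on the log2 scale, within 2 technical spreads. The TNF difference was 0.07 in control cells and 0.01 on the cKO-labelled arrays, where it ran from -0.11 to 0.01 over the settings tried.

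Ikbkg encodes NEMO, the regulatory subunit of IKK, and is X-linked. Its 2 probes name different transcripts, NM_001136067 for the first and NM_010547 for the second. Its first probe had signals of 0.490 and 0.470 in control cells without and with TNF and of 0.512 and 0.563 on the cKO-labelled arrays. Its second probe had signals of 0.247 and 0.304 in control cells and of 0.241 and 0.306 on the cKO-labelled arrays. The second probe was higher with TNF in both genotypes, by 0.30 and 0.34, and the first was not, at -0.06 and 0.14. With normexp background correction the second probe was 0.18 and 0.19 higher, under 2 technical spreads, and over the settings tried it ran from 0.18 to 0.35 in control cells and from 0.19 to 0.50 on the cKO-labelled arrays. Neither probe was past 1.5-fold as scaled here. The first probe was 0.26 higher on the cKO-labelled array with TNF than in control cells with TNF, just under 2 technical spreads and past them with quantile normalization, at 0.32, and the second was 0.01 higher.

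Map3k14 (NM_016896) encodes NIK, which is known to be controlled mainly through turnover of the protein. Its first probe had signals of 1.21 and 1.67 in control cells without and with TNF and of 1.65 and 2.36 on the cKO-labelled arrays. The second probe had signals of 0.129 and 0.165 in control cells and of 0.169 and 0.162 on the cKO-labelled arrays. With the first probe, control cells without TNF were the lowest, the cKO-labelled array with TNF was the highest, and the 2 between them differed by less than the technical spread.

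The TNF difference of the first Map3k14 probe was 0.46 in control cells and 0.51 on the cKO-labelled arrays, both past 2 technical spreads. The second probe was 0.35 higher with TNF in control cells, or 0.09 with normexp background correction, and -0.06 on the cKO-labelled arrays, where its sign depended on the scaling. Without TNF, both probes were higher on the cKO-labelled array, by 0.45 and 0.38. With TNF the first probe was 0.50 higher and the second was at -0.02. The probes therefore gave the same direction between genotypes without TNF and did not with TNF. Both Map3k14 probes, and no other member probe as scaled here, were past 2 technical spreads higher between genotypes without TNF, beside 19.2% of all probes. With normexp background correction the second was at 0.15, under that limit.

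**Figure D2:**
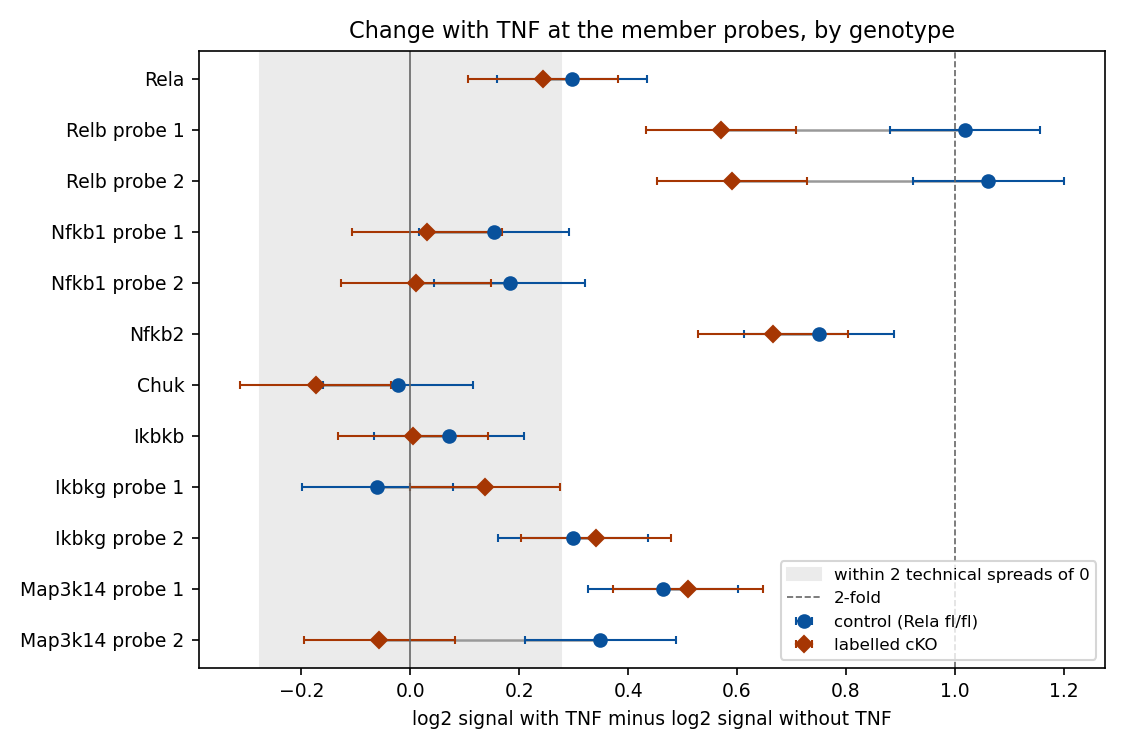
Difference between the arrays with and without TNF for the 12 member probes well above background, in control cells (circles) and on the cKO-labelled arrays (diamonds), in log2 units. Bars are 1 technical spread of a difference and the grey band is 2 spreads around 0. The 2 Relb probes are at 1.02 and 1.06 in control cells and at 0.57 and 0.59 on the cKO-labelled arrays, and Nfkb2 is at 0.75 and 0.67.

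Over the 12 probes, the median TNF difference was 0.30 in control cells, beside 0.01 over all probes, and 0.19 on the cKO-labelled arrays, beside 0.05 over all probes. In control cells 3 member probes were at least 1.5-fold higher with TNF, the Relb pair and Nfkb2, beside 4.87% of all probes. On the cKO-labelled arrays 2 were, Nfkb2 and the second Relb probe, beside 2.66% of all probes. The count in control cells was 3 under each of the 4 other scalings and corrections, and on the cKO-labelled arrays it was 1, Nfkb2, with quantile normalization or normexp background correction and 0 with no scaling or the authors' scaled values. Past 2 technical spreads, 7 of the 12 were higher with TNF in control cells and 0 were lower, beside 12.7% of all probes higher and 13.4% lower. On the cKO-labelled arrays 5 were higher and 0 were lower, beside 12.8% of all probes higher and 17.8% lower. The 5 probes were the Relb pair, Nfkb2, the second Ikbkg probe and the first Map3k14 probe, and in control cells Rela and the second Map3k14 probe were past the limit too. These counts depended on the processing. In control cells 5 probes were higher both with the authors' scaled values, without Rela and the second Ikbkg probe, and with normexp background correction, without the second Ikbkg and second Map3k14 probes. In the other genotype, on the cKO-labelled arrays, 4 were higher with no scaling, the authors' scaled values or normexp background correction, each without the second Ikbkg probe, and 1 was lower, Chuk, with no scaling, quantile normalization or the authors' scaled values. The Relb pair, Nfkb2 and the first Map3k14 probe were past the limit in both genotypes with each of the 4 other scalings and corrections.

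Between genotypes, 0 of the 12 probes were past 2-fold without TNF, beside 3.99% of all probes higher and 4.7% lower on the cKO-labelled array. With TNF 0 were past 2-fold, beside 1.19% higher and 3.42% lower. Among probes well above background on both arrays, the shares were 1.809% higher and 1.959% lower without TNF. With TNF they were 0.7463% and 1.462%. The median genotype difference of the members was 0.01 without TNF, beside 0.03 over all probes, and -0.07 with TNF, beside 0.06 over all probes. The 4 comparisons share arrays in pairs, so they are not independent of each other.

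**Figure D3:**
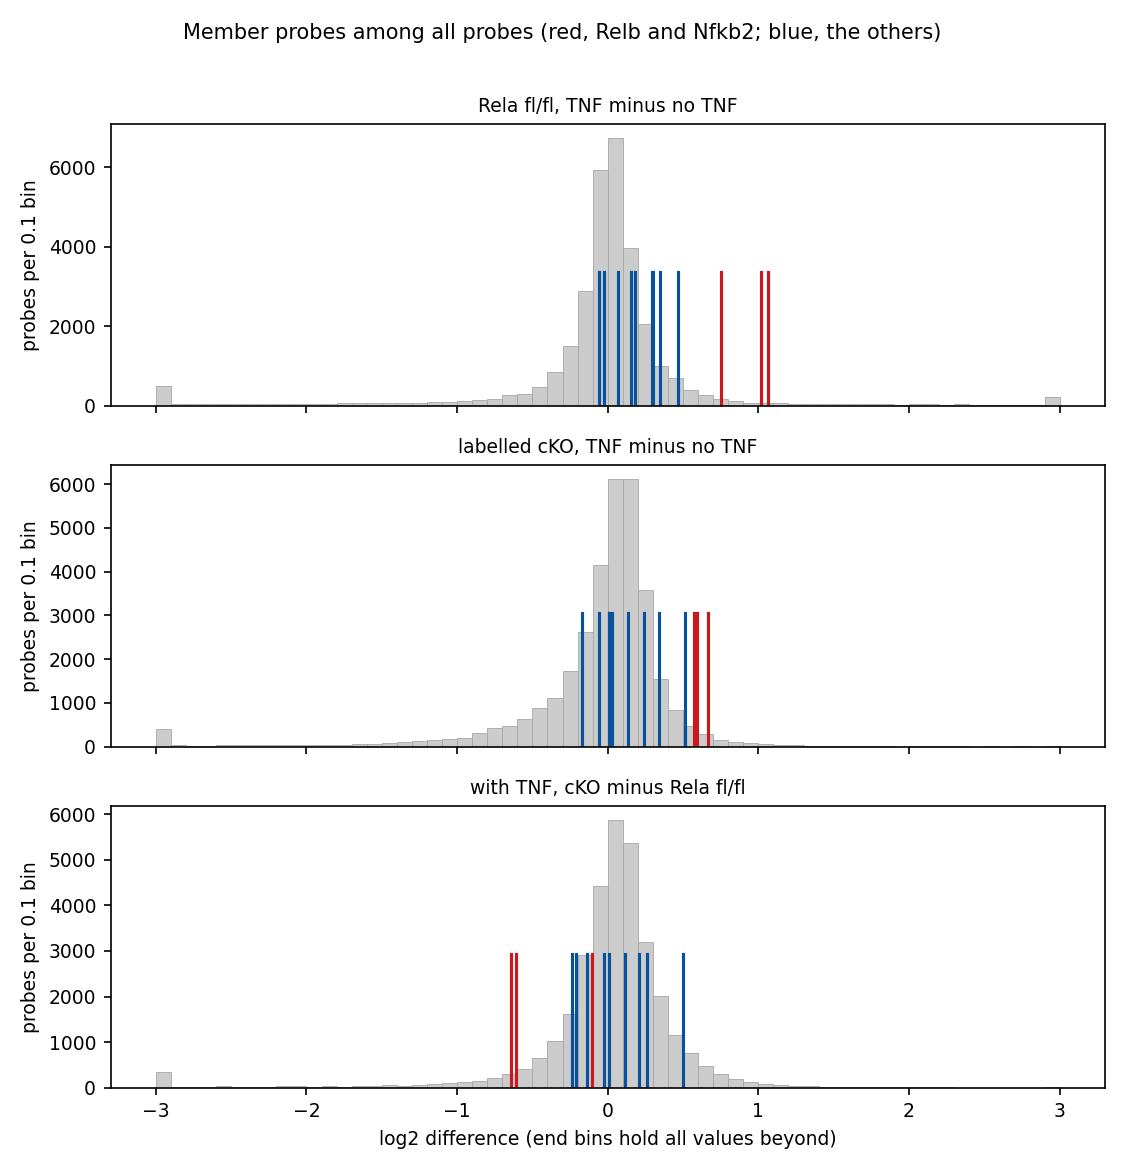
Log2 differences of all probes (grey bars, number of probes per bin) with the 12 member probes as vertical lines, red for Relb and Nfkb2 and blue for the others, in 3 comparisons. The Relb pair and Nfkb2 lie in the upper tail with TNF in both genotypes, and the Relb pair lies in the lower tail of the genotype difference with TNF, at the 5.46 and 5.83 percentiles with patches included.

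For the genotype comparisons, several other measures differed between the same arrays. Xist, the RNA of the inactive X chromosome, had signals of 0.715 and 0.752 in control cells without and with TNF and was not well above background on the cKO-labelled arrays. The Y-linked genes Ddx3y and Eif2s3y were 1.49 and 1.81 higher on the log2 scale on the cKO-labelled array without TNF and 1.71 and 1.83 higher with TNF. Uty, also Y-linked, was at least 1.22 and 1.21 higher there and not well above background on either control array. The arrays of the 2 genotypes thus held RNA of unequal sex makeup, and sex and genotype cannot be told apart. All 10 chondrocyte markers were well above background on all 4 arrays, with summed signals of 1590 to 1666 in control cells and 1332 to 1361 on the cKO-labelled arrays. All 10 were lower on the cKO-labelled array than in control cells without TNF, from -0.03 for Col2a1, the main cartilage collagen, to -1.85 for Matn1, a cartilage matrix protein. Of the 10, 4 were past 1.5-fold and 1, Matn1, past 2-fold, the latter beside 3.43% of all genes lower. The list median was -0.41 without TNF and -0.23 with TNF, where 9 of 10 were lower. All 6 fibroblast markers were also above background, with summed signals of 570 to 652. Of these, 5 were lower on the cKO-labelled array without TNF and all 6 with TNF, and Thy1, a surface antigen, was at -1.59 without TNF and -0.27 with TNF. Of 8 leukocyte markers with a probe, 5 were above background on all arrays and the defining marker Ptprc on none, with summed signals of 37.1 to 45.8, of which the integrin gene Itgam alone made up 31.8 to 40.3. Lyz2, a lysozyme of myeloid cells, was at -1.42 with TNF in control cells, where its spot without TNF lay in a patch of bright spots, and Adgre1, the macrophage antigen F4/80, was at -3.47 with TNF on the cKO-labelled arrays, where its spot without TNF lay in a patch too. Between genotypes without TNF, with the same spots in patches, Lyz2 was at -2.11 and Adgre1 at 2.87. Tyrobp, a myeloid adaptor whose spots lay in no patch, was at least 1.61 lower on the cKO-labelled array without TNF, where it was not well above background, and at -0.56 with TNF. Csf1r, Cd3e and Itgam, in no patch and well above background on all arrays, were at -0.13, -0.15 and 0.21 without TNF. With TNF these 3 were at 0.05, 0.26 and -0.02. Of the 4 endothelial markers, Cdh5 and Tek were above background on none, and Kdr, with signals of 17.5 to 20.5, and Pecam1, with 0.150 to 0.203, on all 4. The part of sex, cell makeup or these markers in the member values was not tested.

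The arrays themselves were alike in brightness. The 75th percentile of processed intensity ran from 589.7 to 634.2, and 50.95% to 58.11% of probes were well above background. Spots in patches, which lie near spots bright on 1 array only and need not be bright themselves, made up 1.037% to 10.74% of spots. With these spots left out, the probes past 2-fold with TNF fell to 0.578% higher and 0.723% lower in control cells, and to 0.599% and 1.64% on the cKO-labelled arrays. Between genotypes they fell to 1.5% higher and 0.942% lower without TNF, and to 1.03% and 0.935% with TNF. Of the members, this leaves out Nfkb2 and changes no count past 2-fold. Patches were found from the same signals, so part of the fall over all probes is set by that choice. With TNF on the cKO-labelled arrays, the median of all probes was 0.05 as scaled here and -0.06 without scaling, so that differences near 0 in that comparison have no fixed sign.

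The genes around the members in the pathway were described by lists, using 1 probe per gene. Of 15 IkB proteins and other inhibitors, 3 were past 2-fold higher with TNF in control cells and 1 on the cKO-labelled arrays, beside 1.81% and 0.824% of all genes. The lower calls over all genes were 3.21% and 2.42%, and there were none in this list. Tnfaip3, the deubiquitinase A20 that restrains IKK, had signals of 0.253 and 0.870 in control cells and of 0.240 and 0.343 on the cKO-labelled arrays, without and with TNF. Its TNF difference was 1.78 against 0.51, and with TNF it was lower by 1.34 on the log2 scale on the cKO-labelled array. Nfkbia, which encodes IkBα, was 1.51 higher in control cells and 0.87 higher on the cKO-labelled arrays. Bcl3, a nuclear IkB protein that binds p50 and p52, was 1.31 and 0.36 higher. As with Relb, each of these 3 genes differed less with TNF on the cKO-labelled arrays. The 3 were named for their large TNF difference. Of all 15 in the list, 9 had a smaller TNF difference on the cKO-labelled arrays and 6 a larger one. Of the 11 in no patch, these were 8 and 3.

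Otud7b, a deubiquitinase known to stabilise TRAF3, went the other way, with 0.06 in control cells and 1.15 on the cKO-labelled arrays. Its spots on both cKO-labelled arrays lay in patches bright on those arrays, and their part in the value was not tested. The list median was 0.22 with TNF in control cells and 0.31 on the cKO-labelled arrays, beside 0.01 and 0.07 over all genes.

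In all 4 comparisons, between 0.824% and 3.43% of all genes were past 2-fold in a given direction, with 2.24% higher and 3.43% lower between genotypes without TNF, so that a count of 0 or 1 in a short list is near the background. Upstream of IKK, none of 17 genes of the canonical route (the TNF receptor, its adaptors, TAK1 and its partners, and the linear ubiquitin ligase) was past 2-fold in any of the 4 comparisons, nor were any of the 5 IKK-related kinases and adaptors or the 14 cofactor and turnover genes. The median TNF difference of the canonical upstream genes was -0.00067 in control cells and 0.08 on the cKO-labelled arrays. Of the genes upstream of NIK, 0 of 8 measured were past 2-fold with TNF in control cells and 1 of 9 on the cKO-labelled arrays. That gene was Tnfrsf13c, the BAFF receptor, 1.74 higher with TNF and not well above background in either control array. Cd40, Ltb and Tnfsf14, a receptor and ligands of this route, were not well above background on any array.

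Of 20 canonical target genes measured, 11 were past 2-fold higher with TNF in control cells and 9 of 19 on the cKO-labelled arrays, with list medians of 1.05 and 0.81. The chemokine Ccl2 had signals of 0.914 and 29.7 in control cells and of 0.913 and 8.23 on the cKO-labelled arrays, without and with TNF, a TNF difference of 5.02 against 3.17. The protease gene Mmp3 was 4.64 and 2.56 higher, the chemokine Ccl5 3.39 and 2.99, and the chemokine Ccl7 3.44 and 0.31. The Ccl7 signal without TNF was 1.18 in control cells and 3.39 on the cKO-labelled array, where its spot lay in a patch. Of 18 canonical targets well above background on all 4 arrays, 13 had a smaller TNF difference on the cKO-labelled arrays and 5 a larger one, and of the 10 in no patch 8 and 2. Among the larger were Traf1, an adaptor of TNF receptors, with 1.01 against 2.14, the chemokine Cxcl10 with 0.86 against 2.29, and the hyaluronan receptor Cd44 with 0.47 against 1.04. A Traf1 spot and a Cxcl10 spot in control cells lay in patches. With TNF, 9 of 21 canonical targets were past 2-fold lower and 3 higher on the cKO-labelled array than in control cells, beside 2.37% of all genes lower and 1.29% higher. Without TNF, 3 of 19 were past 2-fold lower and 2 higher, beside 3.43% of all genes lower and 2.24% higher.

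Among 4 measured targets of the non-canonical pathway, Tnfsf11, which encodes the osteoclast factor RANKL, was past 2-fold higher with TNF in both genotypes. It was at least 3.71 higher on the log2 scale in control cells, where it was not well above background without TNF, and 1.76 higher on the cKO-labelled arrays. Between genotypes with TNF, 2 of the 4 were past 2-fold lower on the cKO-labelled array and 0 higher, Tnfsf11 at -2.16 and the chemokine Cxcl12 at -1.99, with a list median of -1.19. Cxcl12, whose spots lay in no patch, had a TNF difference of 0.67 in control cells and -0.33 on the cKO-labelled arrays. Between genotypes without TNF, Cxcl12 was already at -0.99. The spot of Tnfsf11 in control cells with TNF and those of Ccl2 on 2 arrays and Ccl7 on 1 lay in patches.

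**Figure D4:**
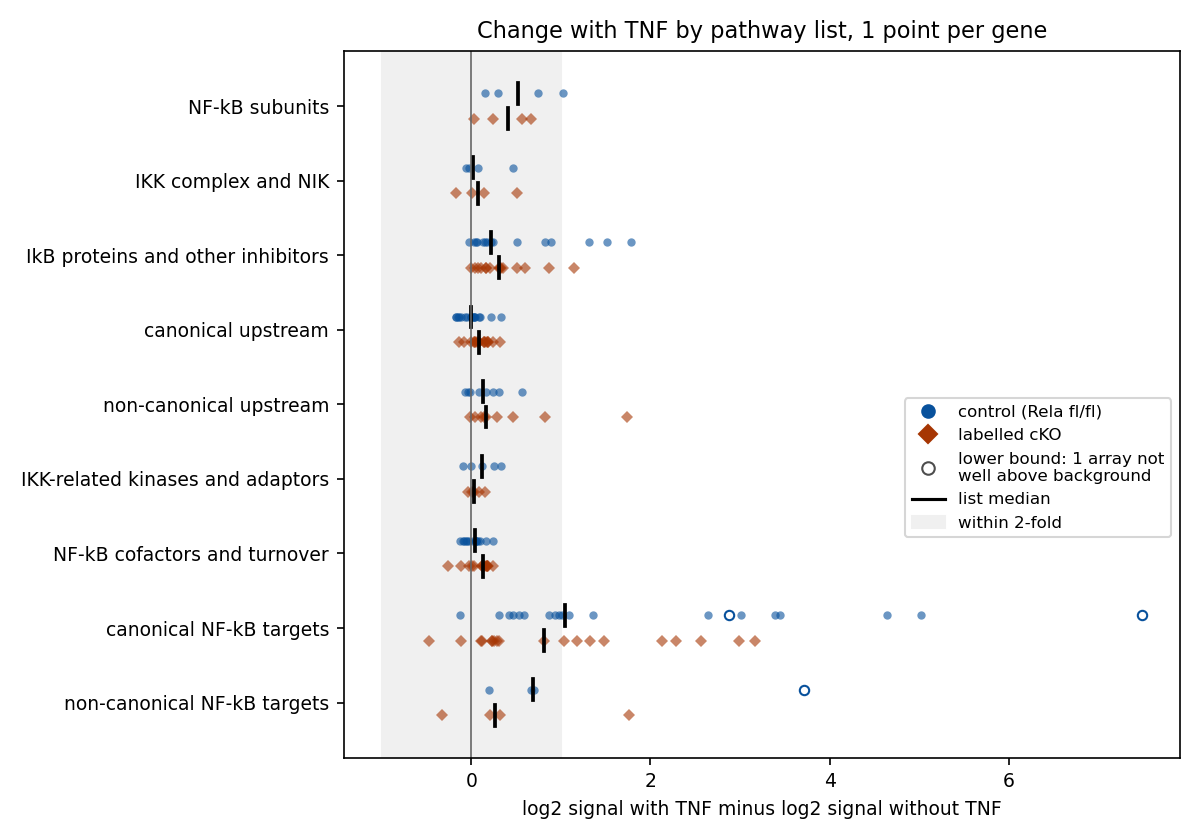
Difference between the arrays with and without TNF for each gene of the pathway lists, in log2 units, in control cells (circles) and on the cKO-labelled arrays (diamonds), with list medians as black bars and 2-fold as the grey band. Open symbols are lower bounds, with 1 array not well above background. Upstream genes and IKK stay within 2-fold apart from Tnfrsf13c, and canonical targets reach 5.02 among genes measured on both arrays.

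Of the members, Relb alone spanned 1 or more on the log2 scale over the 4 arrays, and the genes nearest to it in pattern were looked up. Of 9653 other genes that were well above background and outside patches on all 4 arrays, the nearest by Euclidean distance of the centred log2 values were Erap1 at 0.15, Xdh at 0.17 and Gpr176 at 0.17. Erap1, a peptidase of antigen processing, was 0.90 higher with TNF in control cells and 0.47 on the cKO-labelled arrays. Xdh, xanthine dehydrogenase, was 0.95 and 0.35 higher, and Gpr176, an orphan receptor, 1.18 and 0.41 higher. With TNF, all 3 were lower on the cKO-labelled array, at -0.53, -0.75 and -0.76, beside -0.64 for the first Relb probe. The likeness is over 4 arrays and is a description.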

How the data were processed

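Gene expression was measured in primary mouse chondrocytes on 4 Agilent 1-colour arrays, 1 per genotype and treatment. The authors deposited 1 scanner file per array with spot intensity from Feature Extraction 10.10.1.1 (per the submitters' processing notes), background-subtracted and detrended, with flags for outlier and saturated spots and for spots well above background. A second deposited table held scaled intensity. Each of its columns was the same intensity times 1 factor per array, between 1.77 and 1.83, whose basis is not given in the sources used here.

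From the deposited intensity, log2 values were taken, and the 75th percentile over the 59305 non-control spots of the array was subtracted. Outlier spots were dropped and spots of a probe averaged, which kept 55619 of 55681 probes. Symbols were assigned through the RefSeq table of GRCm38.p6 by transcript accession, which named 27208 probes. The array design names the build mm9, so no gene coordinates are given other than those of the RefSeq promoter windows. A probe was counted past 2-fold at a log2 difference of 1 with the brighter array well above background, and a dim signal was set to at least the lowest one flagged well above background on that array. A raised signal above the brighter one gave no difference. For lists, the probe with the highest mean stood for a gene.

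The members, gene lists and rules were chosen with earlier results of these data known. All 9 members are named with every probe, and from each list up to 4 genes with the largest TNF difference among those past 2-fold and well above background on both arrays. Col2a1, Matn1, Thy1, Tyrobp, Itgam, Csf1r, Cd3e, Kdr, Pecam1, Traf1, Cxcl10, Cd44, Saa3, Il6, Lif and Cxcl12 were named outside this rule, after their values were seen. Alternatives were no scaling, quantile normalization (limma 3.58.1), the authors' scaled values, normexp background correction, 2 other filters, limits of 1.5-fold and 3-fold, and patches left out. A spot was in a patch if 3 or more neighbours within 5 rows and 2 columns were bright on the same array only. Its own brightness was not counted. Bright means 1 or more above each other array on the log2 scale. The scripts (Python 3.11.15, R 4.3.3) were tested on simulated data. The number of arrays limits the precision.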

Additional observations from a re-analysis of the deposited data

Results flagged for a closer look

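Of the member probes, 2 moved in opposite directions with TNF on the arrays of the 2 genotypes. The first Ikbkg probe had a TNF difference of -0.0602 in control cells and 0.1376 on the cKO-labelled arrays, on the log2 scale. The second Map3k14 probe had a TNF difference of 0.349 in control cells and -0.0566 on the cKO-labelled arrays. Of these 4 values, 0.349 alone was past 2 technical spreads. The difference between genotypes was not tested, since each condition had 1 array. The other probe of each gene moved the same way in both genotypes.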

How the results depend on the processing

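The count of member probes past 2-fold with TNF in control cells, 2 as reported, was 1 with quantile normalization, 1 with the authors' scaled values, 0 with normexp background correction and 0 at a 3-fold limit. The count was 2 with no scaling, with both other filters and with patches left out. At a 1.5-fold limit the counts of 0 became 2 with TNF on the cKO-labelled arrays and 2 between genotypes with TNF, and at that limit the first was 0 or 1 and the second 1 or 2 with another scaling or background correction. Between genotypes without TNF the count was 0 under every alternative run. Of 192 values of single member probes with another scaling or background correction, 185 stayed within 1 technical spread, 7 moved further and 0 changed sign from a value past that spread. Differences near 0 changed sign under some settings for Nfkb1, Ikbkb and the second Map3k14 probe with TNF on the cKO-labelled arrays, for the second Nfkb1 probe, Nfkb2 and both Ikbkg probes between genotypes without TNF, and for the second Ikbkg and second Map3k14 probes between genotypes with TNF. The cause of each of these changes was not tested.

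The calls over all probes numbered 2289 with TNF in control cells, 1862 with TNF on the cKO-labelled arrays, 2726 between genotypes without TNF and 1513 with TNF. Counting probes with a symbol alone, they numbered 920, 599, 1041 and 699, with patches left out 277, 545, 537 and 468, with normexp 1354, 724, 1393 and 657, with both arrays well above background 725, 843, 1027 and 645, and with no filter 5870, 6095, 6749 and 6018. With TNF on the cKO-labelled arrays, 13.32% of calls were higher as scaled here and 24.59% with quantile normalization. With patches left out 61.45% of calls between genotypes without TNF were higher and 52.35% with TNF, against 45.89% and 25.78%. The cause was not tested. Leaving out patches removed Nfkb2 from the members measured and moved the first Relb probe from the 97.3 to the 99.4 percentile of the TNF difference in control cells. Patches were found from the same signals, so part of this move is set by that choice. No paired analysis was possible because each group holds 1 array. The second Map3k14 probe had a TNF difference in control cells of 0.35 as reported and 0.09 with normexp.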
